A study of Mus musculus with 6 samples.

Results

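Amino acid transporters are the membrane proteins that carry amino acids and their relatives, such as taurine, creatine and neurotransmitters, into and out of cells and organelles. The genes described here are those of the solute carrier families Slc1, Slc3, Slc6, Slc7, Slc36, Slc38 and Slc43, found by gene symbol among the probe sets that name a single gene, with the brightest probe set over the 6 arrays standing for each gene. The rule gave 63 of the 18193 genes so measured, through 125 probe sets. Of these, 3 are transcripts from the opposite strand that carry a transporter's name (Slc7a6os, Slc6a19os and Slc36a1os), which leaves 60 transporter genes. A further probe set names Slc1a2 together with another gene and was not used.

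RNA came from R1 cells, a mouse embryonic stem (ES) cell line, in the undifferentiated state. In the control group, 3 samples stably expressed a mismatch shRNA sequence. In the other group, 3 samples stably expressed a short hairpin RNA against Pcl2, the Polycomb-like protein whose gene symbol is Mtf2. The labels call them biological replicates and state that the Pcl2 shRNA RNA was from a single clone, so that the shRNA and the clone cannot be told apart. The described ES medium held 15% serum, 2 mM glutamine, 0.1 mM nonessential amino acids, 100 µM 2-mercaptoethanol and 1000 U/mL of leukaemia inhibitory factor, and the selection medium added 150 µg/mL G418. Each sample was hybridised to 1 Mouse Genome 430 2.0 array to find transcripts that respond to lowered Pcl2. The number of arrays limits the precision of every value.

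The Slc7 light chains of the exchanger type reach the cell surface only when bound to a heavy chain of the Slc3 family, while the Slc1, Slc6 and Slc38 families mostly couple amino acid uptake to sodium, and Slc36 members and Slc38a9 act at the lysosome, where amino acids signal to the growth kinase mTORC1. When amino acids run short, the kinase Gcn2 raises translation of the transcription factor Atf4, which acts on its target genes through a composite C/EBP-ATF element and raises, among others, several transporters and aminoacyl-tRNA synthetases. Mtf2 binds CpG-rich DNA and the Polycomb repressive complex PRC2, which marks silent genes.

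The sequences that the results refer to are printed here, 5′ to 3′ on the gene's strand, from the RefSeq promoter table of GRCm38.p6, which holds 250 bases before and 50 bases after each gene's start. Positions are counted from the start site, with -1 the last base before it. The letters TGATGNAA, the core of the C/EBP-ATF composite element, were searched on both strands. They occurred in 4 of the 46 transporter family genes found in the table (8.7%), namely Slc1a4, Slc6a21, Slc7a7 and Slc7a11, in 12 of 28 amino acid response genes (42.9%), and in 4.51% of all 27025 genes. The response genes were Aars, Asns, Atf3, Chac1, Gars, Iars, Nupr1, Pycr1, Tars, Trib3, Vldlr and Yars. The stretch of the Slc7a11 promoter at chr3:50443614-50443739 (minus strand) is shown because it holds 2 matches facing each other, at -66 forward and -47 reverse. The stretch of Slc1a4 at chr11:20332710-20332777 (minus strand) has 1 match on the reverse strand at -4, and that of Slc7a7 at chr14:54417938-54418145 (minus strand) has forward matches at -141 and -1. Capitals mark the matches.
Slc7a11: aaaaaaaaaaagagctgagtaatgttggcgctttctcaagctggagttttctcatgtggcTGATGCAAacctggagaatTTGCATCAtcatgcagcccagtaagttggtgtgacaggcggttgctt
Slc1a4: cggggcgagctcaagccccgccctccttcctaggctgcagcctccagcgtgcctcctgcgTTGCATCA
Slc7a7: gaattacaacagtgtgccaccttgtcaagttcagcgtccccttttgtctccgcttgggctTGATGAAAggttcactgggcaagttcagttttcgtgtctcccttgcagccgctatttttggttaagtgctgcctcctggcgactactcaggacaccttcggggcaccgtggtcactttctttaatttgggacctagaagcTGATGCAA

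The 250 bases before the start are shown with their CpG dinucleotides in capitals for the gene that fell and a gene that rose among those described below. Slc7a6, at chr8:106168671-106168920 (plus strand), has 38 CpG there, and 30 at its other listed start. Slc38a5, at chrX:8271131-8271380 (plus strand), has 8. Of the other tested members whose groups of arrays did not overlap, Slc1a1, which was higher, has 27. Those that were lower have 14 (Slc7a8), 23 (Slc36a4), 21 (Slc38a6), 9 (Slc38a7), 24 (Slc43a1), and 17 and 32 at the starts of Slc43a2. Slc6a8, which also rose, and Slc43a3 have no entry in the promoter table. Tested members with overlapping groups have from 1 (Slc36a3) to 30 (Slc38a2). Whether CpG content goes with direction was not tested. The median was 8 over the promoters of the transporter families, tested or not, and 6 over all promoters of the table. These are properties of the sequence, and binding of Mtf2 was not measured.
Slc7a6: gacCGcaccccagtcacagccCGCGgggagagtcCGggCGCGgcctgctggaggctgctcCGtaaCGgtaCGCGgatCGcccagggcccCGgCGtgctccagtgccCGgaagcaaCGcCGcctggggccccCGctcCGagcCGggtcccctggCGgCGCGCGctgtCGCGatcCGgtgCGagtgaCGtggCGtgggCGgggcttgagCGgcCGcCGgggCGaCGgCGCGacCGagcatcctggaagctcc
Slc38a5: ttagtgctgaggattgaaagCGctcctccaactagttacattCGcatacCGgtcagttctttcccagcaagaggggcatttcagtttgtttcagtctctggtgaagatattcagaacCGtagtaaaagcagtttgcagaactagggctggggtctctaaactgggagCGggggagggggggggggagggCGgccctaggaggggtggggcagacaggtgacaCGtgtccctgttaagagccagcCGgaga

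The targeted gene Mtf2 gave signals of 1952, 1513 and 1704 on control arrays 1, 2 and 3 and 1048, 1167 and 870 on Pcl2 shRNA arrays 1, 2 and 3, with no overlap. Its log2 fold change, Pcl2 shRNA over control, was -0.74 with a standard error (SE) of 0.17 and limma's adjusted p of 0.0157, which with this probe set became 0.0594 without control 1 and 0.058 without shRNA 3. Markers of undifferentiated ES cells were bright on all arrays, their summed signal running from 24438 to 32068 in control and from 36337 to 47424 in Pcl2 shRNA, and 4 of 10 rose (Sox2, Zfp42, Tdgf1 and Fgf4). Of the fibroblast markers 0 of the 7 tested passed (1 at an unadjusted p below 0.05), with summed signals of 468 to 1227 and 349 to 843. Decorin (Dcn), Lum, Postn, Pdgfra and Mgp were below the signal filter. Of 6 trophectoderm markers tested Cdx2 and Krt7 fell, with sums of 855 to 1387 and 891 to 1280. Primitive endoderm markers summed to 325 to 436 and 228 to 273, with Dab2 lower among 4 tested, and neural markers to 402 to 555 and 373 to 458, with Nes lower among 5. With their probe sets kept and an array left out, Krt7 was called in 2 of 6 fits and Sox2 and Nes in 3 each, and the other marker calls held in all 6. With the replicate number as a block 5 ES cell markers rose, 2 fibroblast markers fell, 1 trophectoderm marker rose and 2 fell, 1 primitive endoderm marker fell and 2 neural markers fell. Among all genes tested, 4.46% rose and 8.16% fell without the block, and 9.97% rose and 13.8% fell with it. The part of these markers in the results below was not tested. In RNA from whole cultures, fewer cells of a type and less RNA per cell cannot be told apart.

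Few amino acid transporters passed the test in the fit without a block, and a gene that did not pass is not shown to be unchanged. Of the 63 genes, 41 were bright enough to be tested, 40 of them transporters, and 22 were below the signal filter. Of the 41, Slc38a5 and Slc6a8 rose and Slc7a6 fell, at limma's Benjamini-Hochberg adjusted p below 0.05, and 38 did not pass, with 9 of the 41 at an unadjusted p below 0.05. That is 7.32% of the members, against 12.6% of all 13095 genes tested, of which 4.46% rose and 8.16% fell. Of the 3 calls, that of Slc7a6 held whichever array was left out. Those of Slc38a5 and Slc6a8 each held in 1 of 6 such fits with their probe sets kept. Slc38a5 reached the signal filter only through its shRNA arrays. The median log2 fold change of the 41 was -0.01 and that of all genes 0.02, with a median SE of 0.25 against 0.22. Values on the 3 arrays of each group did not overlap for 11 of the 41, of which 3 were higher and 8 lower in Pcl2 shRNA, while 31.2% of all genes tested did not overlap (14.5% higher and 16.7% lower).

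**Figure D1:**
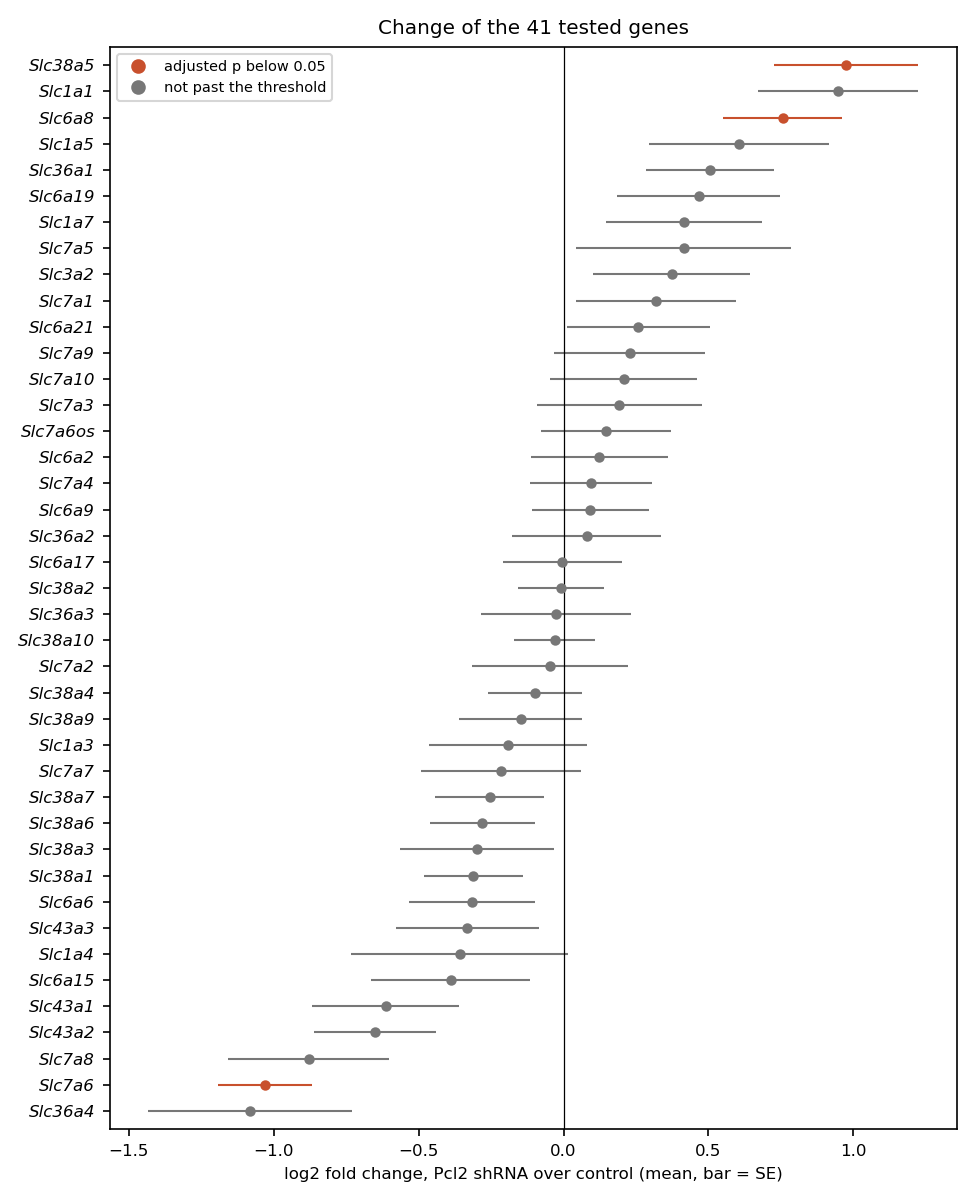
Log2 fold change (Pcl2 shRNA over control, on the scale of log2(signal + 7)) of the 41 tested genes in order of size, with bars for 1 SE from the limma fit and orange for an adjusted p below 0.05. Only Slc38a5 and Slc6a8 pass on the higher side and only Slc7a6 on the lower side, while all 3 Slc43 genes lie below 0 without passing.

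The labels do not say what the replicate number marks, and pairing by it was judged from the same values that are tested. With that number as a block in the fit, 4 of the 41 were higher (Slc1a1, Slc1a5, Slc38a5 and Slc6a8). A further 4 were lower (Slc7a6, Slc7a8, Slc43a1 and Slc43a2), so 19.5% of the members passed. In that fit 23.8% of all genes passed, 9.97% higher and 13.8% lower. The members' share was below the background share in both fits, and neither share was tested against the other. Signals of different probe sets are not comparable with each other, so all values below are read across arrays within a gene.

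Slc7a6, an exchanger of basic for neutral amino acids that works bound to Slc3a2, was the member with the smallest p. Its signals were 332, 289 and 344 on control arrays 1, 2 and 3 and 152.8, 155.8 and 152.4 on the shRNA arrays. The shRNA arrays lay close together and each was well below every control array. The log2 fold change was -1.03 (SE 0.16, limma adjusted p 0.00268), and the call held in all 6 fits that leave out an array, with the adjusted p at most 0.0177. The other probe set of the gene gave 199, 175 and 179 in control and 97.3, 108 and 106 in Pcl2 shRNA, again with no overlap. Slc7a6os, the gene on the opposite strand, gave 73.5, 108 and 100.4 in control and 122, 109 and 83.2 in Pcl2 shRNA by its brightest probe set. The groups overlapped and the log2 fold change was 0.15 (limma adjusted p 0.743). Its other, dimmer probe set gave 52.2, 43.7 and 42.7 in control and 26.3, 35.2 and 40.3 in Pcl2 shRNA. There the groups did not overlap and the difference was -0.39, so the direction depended on the probe set.

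The heavy chain Slc3a2, without which Slc7a5, Slc7a6, Slc7a7, Slc7a8, Slc7a10 and Slc7a11 do not reach the membrane, gave 1338, 2394 and 1110 in control and 1530, 2245 and 2257 in Pcl2 shRNA. The groups overlapped and control 2 was far above the other control arrays. Its log2 fold change was 0.37 (SE 0.27, limma adjusted p 0.442).

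Slc7a5, the light chain for large neutral amino acids such as leucine, gave 714, 1406 and 489 in control and 666, 1381 and 1277 in Pcl2 shRNA. The highest control signal was 2.87 times the lowest, which exceeds the difference between the groups, at a log2 fold change of 0.41 (SE 0.37, limma adjusted p 0.544). Slc7a7, the close relative of Slc7a6 with the same kind of exchange, gave 1002, 1439 and 592 in control and 813, 940 and 711 in Pcl2 shRNA, and all of its shRNA values lay within the control range (-0.22, adjusted p 0.69). Slc7a8, a light chain for neutral amino acids, gave 45.1, 42.98 and 56.5 in control and 14.8, 33.7 and 23.0 in Pcl2 shRNA. Every shRNA value was below every control value. The log2 fold change was -0.88 (SE 0.28), with a limma adjusted p of 0.0671 that became 0.0382 with the replicate block.

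The cationic amino acid transporters Slc7a1, Slc7a2 and Slc7a3 take up arginine and lysine without a heavy chain. Slc7a3 gave 1437, 2096 and 866 in control and 1581, 1918 and 1287 in Pcl2 shRNA, and Slc7a1 gave 501, 685 and 306 against 469, 731 and 600. In both genes control 2 was the highest and control 3 the lowest control array, and the groups overlapped. Their log2 fold changes were 0.19 and 0.32 (limma adjusted p 0.733 and 0.53), that of Slc7a2 was -0.05 (0.939) and that of Slc7a4 0.09 (0.829). Of the remaining light chains, Slc7a9, which carries cystine and basic amino acids with Slc3a1, had a value of 0.23 (0.646) and Slc7a10, which carries small neutral amino acids, 0.21 (0.672). The Slc7 family as a whole had 0 genes that rose and 1 that fell among 11 tested, with a median of 0.15.

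**Figure D2:**
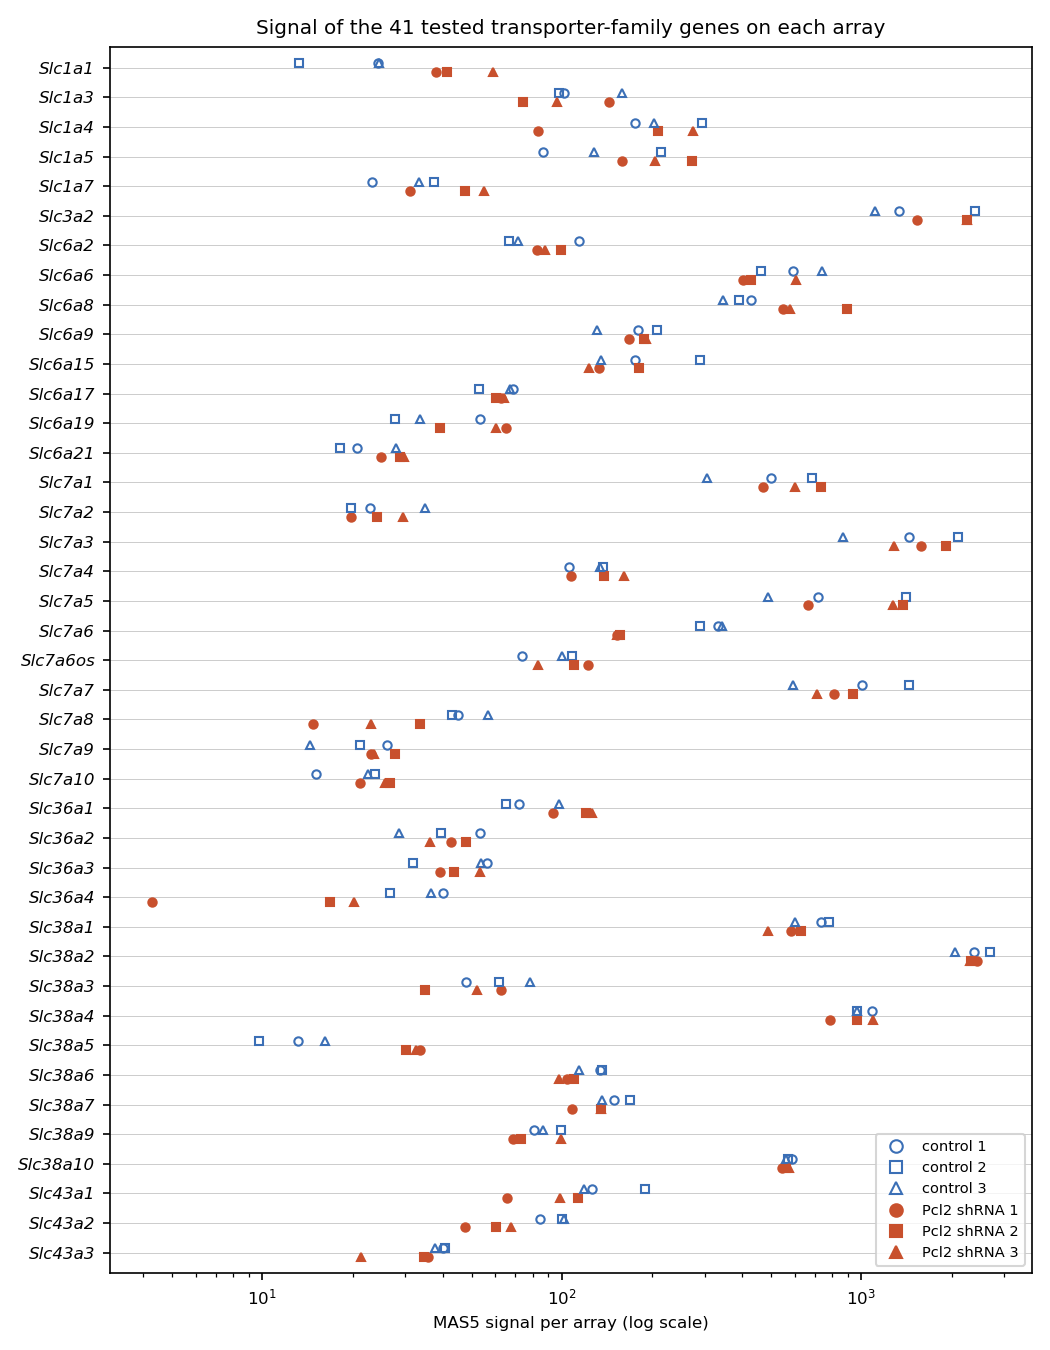
MAS5 signal on each of the 6 arrays (log axis) for the 41 tested genes, open blue symbols for control and filled orange symbols for Pcl2 shRNA, with a symbol shape for each replicate number. The shRNA points of Slc7a6 (152.4 to 155.8) lie below all of its control points (289 to 344), whereas those of Slc3a2, Slc7a5 and Slc7a3 overlap with control.

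Slc6a8, the creatine transporter, gave 427, 390 and 346 in control and 547, 896 and 579 in Pcl2 shRNA. All 3 shRNA arrays were above all 3 control arrays, with array 2 furthest. The log2 fold change was 0.76 (SE 0.21, limma adjusted p 0.0373, and 0.00855 with the replicate block). The adjusted p was 0.0561 with no signal filter and 0.0652 without the intensity trend. With this probe set kept and an array left out, the call held only without shRNA 1 (0.0396). The adjusted p was then 0.0619 without control 1, 0.0753 without control 2, 0.0901 without control 3, 0.159 without shRNA 2 and 0.0506 without shRNA 3, with log2 fold changes of 0.54 to 0.89. A second probe set gave 356, 268 and 387 in control and 829, 818 and 622 in Pcl2 shRNA. That probe set is the brighter of the pair by its linear mean, and with it the log2 fold change was 1.15 (adjusted p 0.00362). Without control 1, control 2 or shRNA 2 that second probe set also has the higher mean log2 signal, and where it then stands for the gene the log2 fold change was 1.20, 1.00 and 1.09, with adjusted p of 0.0106, 0.0103 and 0.0232. The size of the rise and its call thus depended on the probe set taken.

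Slc6a6, the taurine transporter, gave 592, 461 and 741 in control and 402, 428 and 604 in Pcl2 shRNA by its brightest probe set, with overlapping groups and a log2 fold change of -0.31 (SE 0.22, limma adjusted p 0.415). Its other 3 probe sets had differences of -0.87, -0.88 and -1.02. The brightest of those 3 gave 346, 365 and 421 in control and 152, 168 and 237 in Pcl2 shRNA, with no overlap. With the mean of its probe sets the gene had a log2 fold change of -0.77 and a limma adjusted p of 0.027, so whether Slc6a6 passed depended on the probe set taken. In that setting 2 of the 41 members rose and 3 fell (Slc7a6, Slc43a2 and Slc6a6), where 12.3% of all genes passed, 4.58% higher and 7.68% lower.

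Slc6a15, a sodium-coupled carrier of branched-chain amino acids and proline, gave 175, 289 and 135 in control and 133, 181 and 123 in Pcl2 shRNA, with overlap (-0.39, limma adjusted p 0.423). The glycine transporter Slc6a9 had a log2 fold change of 0.09 (0.827), the noradrenaline transporter Slc6a2 0.12 (0.80), Slc6a17 -0.0046 (0.992), the neutral amino acid carrier Slc6a19 0.47 (0.343) and Slc6a21 0.26 (0.572). In this family 1 of 8 tested genes rose, 0 fell and the median was 0.11, and 13 of its 21 genes were below the filter.

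**Figure D3:**
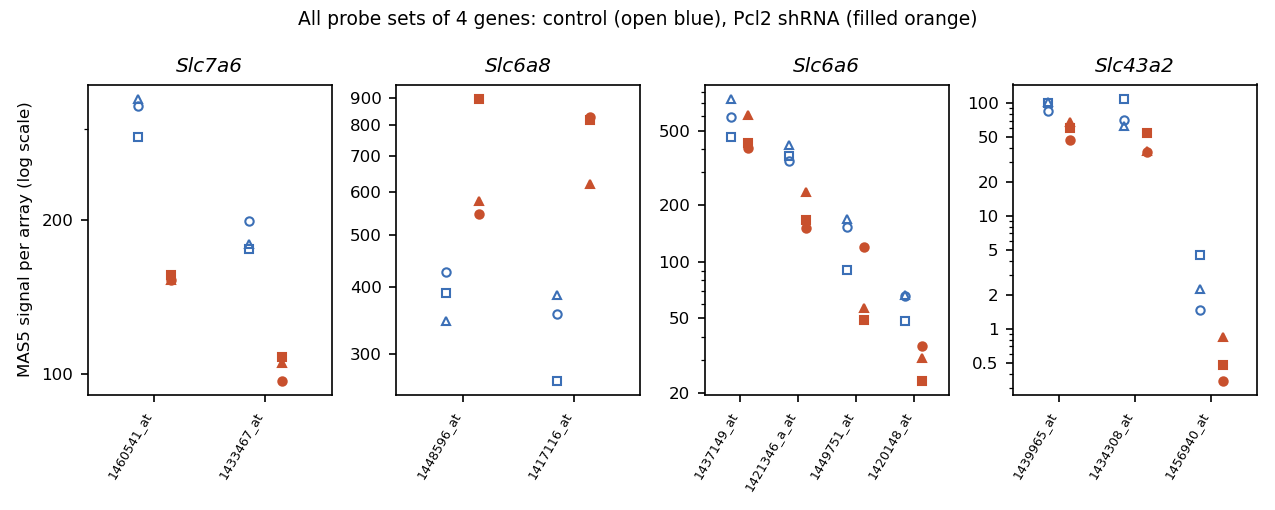
MAS5 signal (log axis) of every single-gene probe set of Slc7a6, Slc6a8, Slc6a6 and Slc43a2 on the 6 arrays, open blue symbols for control and filled orange symbols for Pcl2 shRNA. The groups separate in both probe sets of Slc7a6 and of Slc6a8, while in the brightest probe set of Slc6a6 they overlap, with 402 to 604 in Pcl2 shRNA against 461 to 741 in control.

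In the Slc38 family, which takes up glutamine, alanine and other small neutral amino acids with sodium, Slc38a5 passed limma's test as higher. Only the shRNA arrays brought this gene over the signal filter. Its signals were 13.2, 9.7 and 16.2 in control and 33.5, 30.2 and 32.6 in Pcl2 shRNA, close together in the latter. The control values were all at or below 20.3, the highest signal of probe sets for bacterial sequences that were not spiked in, so the gene has only a bound there and was at least 1.58-fold higher in Pcl2 shRNA. The fitted log2 fold change was 0.98 (SE 0.25, limma adjusted p 0.0286). With signals floored at 20.3 it was 0.52 (0.103), without control 1 the adjusted p was 0.0602 and without control 2 0.0666, and the gene fell under the signal filter when any shRNA array was left out. Kept in the fit regardless of the filter, it was called in 1 of 6 fits that leave out an array, that without control 3 (0.0422), with the adjusted p at most 0.0864.

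The remaining 8 genes of the family all had negative values and 0 passed limma's test, none of them at an unadjusted p below 0.05 either. Slc38a2, which is known to be raised by amino acid shortage, gave 2384, 2689 and 2061 in control and 2423, 2320 and 2310 in Pcl2 shRNA, a narrow range with a log2 fold change of -0.01 (SE 0.15, limma adjusted p 0.981). Slc38a4 gave 1086, 970 and 965 against 786, 966 and 1089 (-0.10, SE 0.16, adjusted p 0.765), again with overlapping groups. Slc38a1 had a value of -0.31 (0.288), Slc38a3 -0.30 (0.542), Slc38a6 -0.28 (0.38), Slc38a7 -0.26 (0.444), the lysosomal arginine sensor Slc38a9 -0.15 (0.725) and Slc38a10 -0.03 (0.92). Slc38a9 has 7 probe sets. The second brightest gave 87.2, 74.0 and 86.9 in control and 43.5, 62.3 and 66.0 in Pcl2 shRNA, with no overlap and a difference of -0.50. The dimmer ones had differences of -0.39, -0.01, -0.20, 0.07 and -1.24. The groups of Slc38a6 and Slc38a7 did not overlap, by a margin between 135 and 136 for Slc38a7. The family median was -0.15.

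All 3 Slc43 genes were lower on every shRNA array than on every control array, and 0 of them passed limma's test without a block, although Slc43a1 and Slc43a2 had an unadjusted p below 0.05. Among all genes tested 16.7% were lower without overlap. Slc43a1, a facilitative carrier of branched-chain amino acids, gave 126, 190 and 119 in control and 65.6, 114 and 98.2 in Pcl2 shRNA (-0.61, SE 0.25, limma adjusted p 0.156, and 0.0313 with the replicate block). Slc43a2, a carrier of the same kind, gave 84.7, 99.7 and 101.6 in control and 47.5, 60.4 and 67.5 in Pcl2 shRNA (-0.65, SE 0.21, adjusted p 0.0715, 0.0241 with the block and 0.0384 with the mean of its probe sets). A second probe set of Slc43a2 gave 71.3, 110 and 62.7 against 37.1, 54.0 and 37.7. Slc43a3, which carries nucleobases rather than amino acids, gave 40.2, 40.6 and 37.7 against 35.6, 34.7 and 21.3 (-0.33, adjusted p 0.453).

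Among the Slc1 genes, the glutamate and cysteine transporter Slc1a1 gave 24.3, 13.3 and 24.5 in control and 38.04, 41.2 and 58.9 in Pcl2 shRNA, with no overlap. Its log2 fold change was 0.95 (SE 0.28) and its limma adjusted p 0.0501, just short of the threshold. The adjusted p was below 0.05 in 7 alternatives, from 0.0237 with the block to 0.0496 without cross-hybridising probe sets. It was 0.0545 with a pseudocount of 1, 0.0717 with the mean of probe sets, 0.0869 with no filter and 0.0631 to 0.157 in the 6 fits that leave out an array, so it stood on either side of the threshold by setting. The neutral amino acid exchanger Slc1a5, through which cells take up glutamine, gave 86.4, 214 and 128 in control and 159, 272 and 205 in Pcl2 shRNA. Within each replicate number the shRNA array was the higher, and the groups as wholes overlapped (0.61, SE 0.31, adjusted p 0.254, and 0.0192 with the block). Slc1a4, its relative for alanine, serine and cysteine, gave 175, 295 and 203 against 83.1, 210 and 275 (-0.36, adjusted p 0.612), with shRNA 1 far below the others. The glutamate transporters Slc1a3 and Slc1a7 had values of -0.19 (0.721) and 0.42 (0.38). Of the 5 tested genes 0 passed without a block, 1 (Slc1a1) at an unadjusted p below 0.05, and their median was 0.42.

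The proton-coupled Slc36 transporters carry small amino acids such as glycine, alanine and proline. Slc36a4 gave 40.1, 26.7 and 36.5 in control and 4.3, 16.8 and 20.3 in Pcl2 shRNA. The shRNA signals were at or below the background level of 20.3 and the gene was at least 1.67-fold lower there, with a fitted limma adjusted p of 0.0739 (0.0501 with the block). Slc36a1 gave 72.0, 64.9 and 98.1 in control and 93.5, 121 and 126 in Pcl2 shRNA, overlapping only through control 3 and shRNA 1 (0.51, SE 0.22, adjusted p 0.18). Slc36a3 gave 56.3, 31.8 and 53.8 against 39.1, 43.7 and 53.4 (-0.03, adjusted p 0.966), and Slc36a2 had a value of 0.08 (0.885). Of these 4 genes 0 passed limma's test with or without the block, and Slc36a1 and Slc36a4 had an unadjusted p below 0.05.

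The 22 genes below the filter had signals from 0.53 to 34.5 over the 6 arrays. They were the glutamate transporters Slc1a2 and Slc1a6, the heavy chain Slc3a1, 13 Slc6 genes (Slc6a3, Slc6a4, Slc6a5, Slc6a7, Slc6a11, Slc6a12, Slc6a13, Slc6a14, Slc6a16, Slc6a18, Slc6a19os, Slc6a20a and Slc6a20b), 5 Slc7 genes (Slc7a11, Slc7a12, Slc7a13, Slc7a14 and Slc7a15) and Slc36a1os. These include the dopamine and serotonin transporters Slc6a3 and Slc6a4 and the glial glutamate transporter Slc1a2. The cystine-glutamate exchanger Slc7a11 gave 12.5, 12.7 and 9.7 in control and 4.3, 15.7 and 34.5 in Pcl2 shRNA, above background only on shRNA 3. The proline transporter Slc6a7 gave 13.8, 14.2 and 7.4 in control and 22.1, 29.6 and 25.4 in Pcl2 shRNA, chosen for mention after its values were seen, and was not tested.

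Within the groups, several bright transporters differed more between arrays of a group than between the groups. Set against the mean log2 signal of their own group, 9 of the 41 were at least 0.35 higher on control 2, the most on any array: Slc1a4, Slc1a5, Slc3a2, Slc6a15, Slc7a1, Slc7a3, Slc7a5, Slc7a7 and Slc43a1. The margin was chosen after the values were seen. Of these 9, 7 were lowest among the controls on control 3, and 6 were lowest among the shRNA arrays on shRNA 1 and 3 on shRNA 3. Over all 41 members, 20 were highest among the controls on control 2 (48.8%, against 28.9% of all genes tested), and 26 were lowest among the shRNA arrays on shRNA 1 (63.4%, against 41.5%). After median centring of the arrays the share on control 2 was 58.5%, against 46.9% of all genes.

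The amino acid response genes, which include Atf4 itself, its transcriptional targets and aminoacyl-tRNA synthetases, differed between the same arrays. Of 32 tested, 28 (87.5%) were highest among the controls on control 2 and 28 were lowest among the shRNA arrays on shRNA 1. After median centring 30 of 32 and after quantile normalization 26 of 32 were highest on control 2, where all genes gave 46.9% and 34.0%. Their median deviation from the group mean was -0.17, 0.36 and -0.19 on the log2 scale on control arrays 1, 2 and 3 and -0.27, 0.10 and 0.20 on the shRNA arrays. Atf4 gave 1380, 2087 and 1446 in control and 1458, 2175 and 2838 in Pcl2 shRNA. Chac1, a target of Atf4 that degrades glutathione, gave 244, 1010.2 and 83.9 against 327, 925 and 831. The values of Chac1 and of Slc7a5 were thus highest in control on array 2 and lowest there on array 3. Not every gene of the list followed: asparagine synthetase (Asns), which has the motif in its promoter, gave 2298, 2849 and 3727 in control and 2389, 3030 and 4616 in Pcl2 shRNA, highest on array 3 of each group. Slc38a2 varied little between the arrays by its brightest probe set, with control 2 the highest and control 3 the lowest control array. Its second brightest probe set varied more, with 349, 588 and 459 in control and 442, 446 and 505 in Pcl2 shRNA. Of the genes whose promoter stretches are printed above, Slc1a4 and Slc7a7 were among the 9 and Slc7a11 was too dim to read. Slc7a7 also has listed starts without a match. Of the rest of the 9, Slc3a2, Slc7a1 and Slc43a1 have no match at their listed starts. Slc1a5, Slc6a15, Slc7a3 and Slc7a5 have no entry in the promoter table. Slc6a21 also has the motif, and its stretch is not printed. It gave 20.7, 18.2 and 28.0 in control, lowest on array 2 and there below background. In Pcl2 shRNA it gave 24.9, 28.9 and 29.6, lowest on array 1. Whether the motif goes with the array pattern was not tested. The part of the difference between cultures in the group comparison was not tested.

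**Figure D4:**
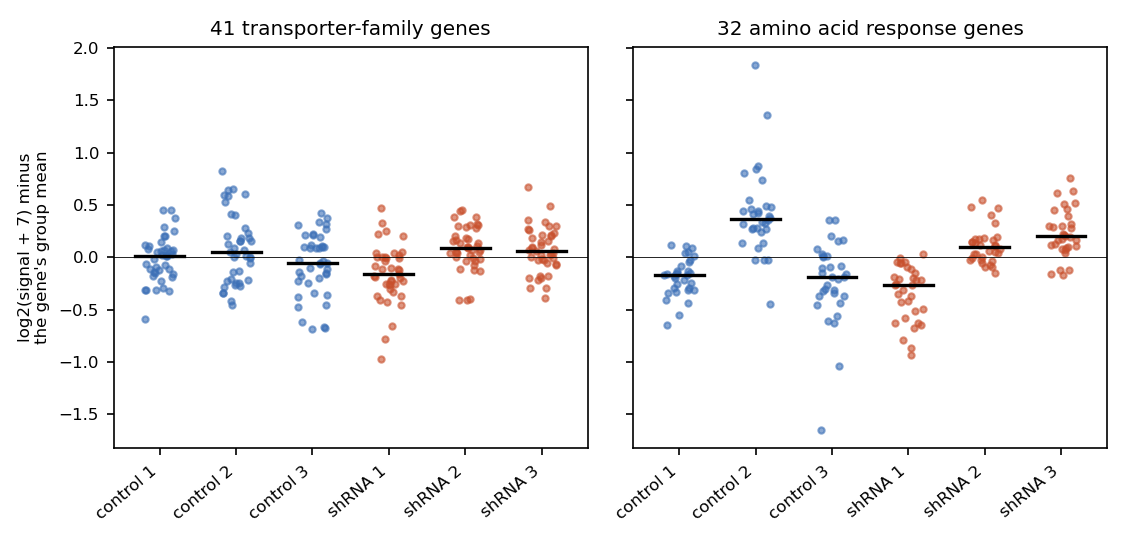
Deviation of each gene's log2 signal from its own group's mean on each of the 6 arrays, for the tested amino acid transporters and the amino acid response genes. Response genes sit above 0 on control 2 (median 0.36) and below 0 on shRNA 1 (median -0.27), and the transporters show smaller median deviations on the same arrays.

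Other genes that handle amino acids were read from 5 lists. Of 20 tested carriers of other families, 3 rose and 2 fell, where 12.6% of all genes tested passed. The median log2 fold change of these carriers was -0.20. Slc15a1, a proton-coupled carrier of di- and tripeptides, gave 16.7, 10.8 and 34.0 in control and 108, 87.3 and 87.6 in Pcl2 shRNA (1.96, SE 0.31, limma adjusted p 0.00261). Its relative Slc15a2 went the other way, from 69.0, 94.7 and 138 to 29.5, 35.3 and 47.4 (-1.25, SE 0.28, adjusted p 0.0153, at most 0.0571 with an array left out). The mitochondrial aspartate-glutamate carrier Slc25a12 rose by 1.28 (adjusted p 0.0144) and the mitochondrial ornithine carrier Slc25a15 by 0.74 (0.00958), and each was called in 5 of 6 fits that leave out an array. In all 4 the groups did not overlap. The count of calls in this list, 5, was 1 without shRNA 2, 3 without shRNA 1 and 3 with the mean of probe sets. With the block it was 9, 4 higher and 5 lower, where 23.8% of all genes passed.

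Of the 32 amino acid response genes, 1 rose and 1 fell, where 12.6% of all genes passed, and their median was 0.18. Atf3, a stress-induced repressor of transcription, gave 165, 402 and 162 in control and 50.4, 69.5 and 68.1 in Pcl2 shRNA (-1.72, SE 0.33, limma adjusted p 0.00681). Psph, the last enzyme of serine synthesis, gave 399, 663 and 464 against 734, 992 and 1047 (0.87, SE 0.22, adjusted p 0.0253, up to 0.104 with an array left out). Without control 2, the array on which most of these genes were high, 7 of 32 passed, where 12.2% of all genes did. Leaving out that array lowers the control mean of the genes that were high on it. Without shRNA 1, Atf3, Psph and Nupr1 passed, where 386 of 13141 genes rose and 801 fell. Without control 1, control 3, shRNA 2 or shRNA 3 there was 1. With the block 8 of 32 passed, 4 in each direction, where 23.8% of all genes did.

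Of 34 genes of amino acid sensing by mTORC1, Rragd was the single call in the fit without a block, where 12.6% of all genes passed. Rragd, a Rag GTPase that recruits mTORC1 to the lysosome, fell by 0.95 on the log2 scale (SE 0.22, limma adjusted p 0.0171). With an array left out its adjusted p was at most 0.0563, and it was called in 4 of 6 such fits. The list had 0 calls without shRNA 3, and 2 without the trend, with the filter at the 60th percentile, with median centring, with quantile normalization and with the floor at background. With the block 2 were higher and 2 lower, where 23.8% of all genes passed. Of 37 enzymes of amino acid metabolism 4 rose and 1 fell, where 12.6% of all genes passed. Hal, which begins histidine breakdown, was at or below background in all controls and at least 2.75-fold higher in Pcl2 shRNA (adjusted p 0.00187). Bckdha and Dbt, subunits of the complex that degrades branched-chain keto acids, rose by 0.83 (0.018) and 0.61 (0.0274). With an array left out Bckdha was called in 4 of 6 fits (at most 0.0659) and Dbt in 0 of 6 (0.0528 to 0.0986). Psph, given above, is also in that list. Without shRNA 2 or shRNA 3 the list had 0 calls, without shRNA 1, control 1 or control 3 it had 2, and without the trend 3. With the block it had 10, where 23.8% of all genes passed. Hal was among those not tested when an shRNA array was left out, and was called in the 3 fits in which it was tested.

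Of 14 cystine and glutathione genes, 0 passed by limma, where 12.6% of all genes did. In this list 1 was at an unadjusted p below 0.05, and 1 was higher with the block or without control 2. The brightest were Gpx4, which reduces lipid peroxides with glutathione (0.34, adjusted p 0.347), and Txnrd1, thioredoxin reductase (-0.15, adjusted p 0.605).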

How the data were processed

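Each sample's total RNA was hybridised to a Mouse Genome 430 2.0 array and read on a GeneChip Scanner 3000, as the labels' protocols state. The deposited values are MAS5 signals, a linear intensity for each probe set. The authors obtained them with GCOS 1.4, per the labels and the processing notes. Trimming 2% from each end gave every array a mean of 150.001, so this scaling was kept. The genome build behind the probe set annotation is not given in the sources used here.

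Of 45101 probe sets 34945 named 1 gene, 932 several and 9160 none, and 64 were controls. Signals were transformed to log2(signal + 7), 7 being the 20th percentile, which understates changes of dim genes. Probe sets with a mean log2 value at or above the 40th percentile, a signal of about 20.2, were tested, with the highest mean standing for each of 13095 genes. The comparison used limma 3.58.1 in R 4.3.3 (lmFit, eBayes with trend), two-sided, with Benjamini-Hochberg adjustment over these genes. The fit was also run on simulated data with independent noise for each probe set, without pairing or differences shared by an array. That run does not measure false calls in these data. An exact permutation test of 3 against 3 arrays has 20 relabellings and cannot go below 0.1. Correlations between arrays were 0.961 to 0.977 within groups and 0.907 to 0.943 between groups, across genes, which are not independent replicates. The ratio of 3′ to 5′ signal was 1.14 to 1.22 for Actb in control and 1.18 to 1.33 in Pcl2 shRNA.

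Background is the highest signal, 20.3, among 27 probe sets for bacterial sequences that were not spiked in, a level chosen after the data were seen. Where every array of a group is at or below it, only a bound is given, with the dim arrays set to that level.

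The labels number the samples 1 to 3 in each group without saying what a number marks. Same-numbered samples had deviations from their group means that correlated at 0.386, 0.250 and 0.397, and other pairs at -0.382 to -0.001. Deviations within a group cancel out, so these correlations are not independent of each other. On these data alone, the samples were judged to be paired by number, and the block fit tests the same values. The pairing entered only the alternative fit with the number as a block. The main fit has no block, so its SE and adjusted p do not use the pairing.

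The members and lists were chosen with earlier results of these data known. Every tested member was named, with arrays given for those that passed, for the 2 brightest of a family and for others chosen after their values were seen. Of each list, up to 4 genes that passed with the smallest p were named, or the 2 brightest. Alternatives changed the normalization (quantile, median centring), the pseudocount (1 or 21), the filter (none or the 60th percentile), the probe set (mean of probe sets, without cross-hybridising ones), the trend, the replicate block and each array left out. A floor at background, the brightest probe set by linear mean, and leaving out arrays with the probe sets kept were added after seeing the data.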

Additional observations from a re-analysis of the deposited data

How the results depend on the processing

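The count of transporters that rose was 2, and it was 1 with the filter at the 60th percentile, 1 with no filter, 4 with the replicate block, and 3, with Slc1a1 added, under median centring, quantile normalization, a pseudocount of 21 and without cross-hybridising probe sets. Without the trend the 2 were Slc1a1 and Slc38a5, and with the floor at background Slc1a1 and Slc6a8. It was 1 in each fit that leaves out an array (Slc38a5 without control 3, otherwise Slc6a8), but in 3 of these (without control 1, control 2 or shRNA 2) the brightest Slc6a8 probe set was another, and Slc6a8 was the only tested member for which this happened. With the probe sets kept, an alternative added after seeing the data, the count ran from 0 to 1: Slc6a8 without shRNA 1, Slc38a5 without control 3, and 0 in the other 4 fits. The count that fell was 1, and it was 2 with a floor at background (chosen after seeing the data), 3 with the mean of probe sets per gene, 4 with the replicate block, and 1 (Slc7a6) in each fit with an array left out, probe sets kept or not. The count over all genes was 1652, 3113 with the block and 979 without shRNA 2. The block changed no call of a member beyond those named in the results. Of 717 values of the 41 tested members under the alternatives, 662 kept their direction and side of the threshold, 14 passed it, 6 lost it and 35 changed sign, in 15 members whose log2 fold change was at most 0.3577 in size. Signs changed to 0.12 for Slc1a3 without cross-hybridising probe sets; with the mean of probe sets to -0.0673 for Slc6a2, -0.0030 for Slc6a9, 0.18 for Slc6a17, -0.0598 for Slc7a4, -0.12 for Slc7a6os, 0.0547 for Slc38a2 and 0.0021 for Slc38a10; with median centring to 0.0148 for Slc6a17 and 0.011 for Slc38a2; and with quantile normalization to 0.0127 for Slc6a17. With an array left out, log2 fold changes ran from -0.43 to 0.0208 for Slc1a3, -0.69 to 0.13 for Slc1a4, -0.0128 to 0.35 for Slc6a2, -0.0854 to 0.23 for Slc6a9, -0.11 to 0.0561 for Slc6a17, -0.18 to 0.14 for Slc7a2, -0.14 to 0.49 for Slc7a3, -0.0352 to 0.24 for Slc7a4, -0.0085 to 0.29 for Slc7a6os, -0.55 to 0.0832 for Slc7a7, -0.11 to 0.27 for Slc36a2, -0.25 to 0.10 for Slc36a3, -0.11 to 0.0843 for Slc38a2 and -0.21 to 0.0288 for Slc38a4. The cause was not tested, except that a stricter filter and an array left out test fewer genes or samples. Signals near background bound the dim members in size.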
